A study of Homo sapiens with 26 samples.

Results

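Protein folding in the endoplasmic reticulum (ER) and the unfolded protein response were followed through 40 listed genes in MDA-MB-468 cells, an established human breast cancer line of the basal, triple-negative type, whose NOTCH3 signalling was blocked or stimulated. The list is grouped by function: sensors and transcription factors, lumenal chaperones, lectin chaperones, folding enzymes, ER-associated degradation, and entry and transport. It was chosen with earlier results of these data known, so its shares set beside those of all genes are descriptions. Of the 40 genes, 37 were measured among 19775 genes in all, each by its brightest single-gene probe set over all 26 arrays. PDIA5, SYVN1 and KDELR2 are not analysed here.

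Secretory and membrane proteins enter the ER unfolded and are folded there by chaperones and disulfide isomerases. When unfolded proteins accumulate, BiP (HSPA5) leaves the sensors IRE1 (ERN1), PERK (EIF2AK3) and ATF6, which then raise chaperones and degradation factors through XBP1, ATF4 and cleaved ATF6. Cells with a large secretory output, such as glandular epithelium, keep this machinery at a high level.

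All cells were MDA-MB-468, which 1 label field spells MBA-MB-468. In the agonism experiment, 6 groups of 3 arrays each were harvested at 24 h. A13 cells received the NOTCH3 antibody anti-N3.A13 at 20 µg/ml, which the submitters list among the agonists. JAG1 cells received beads carrying JAG1-Fc, which is a ligand of Notch fused to an antibody tail, and Fc cells received beads with the tail alone. IgG cells received a control antibody at 20 µg/ml. These 4 groups had all been kept in 5 µM DAPT, an inhibitor of the gamma-secretase that releases the Notch signal, for 16 h, and then in plain medium for 2 h. DAPT cells had the same start and then 5 µM DAPT again, renewed at 22 h. DMSO cells had 0.05% DMSO in place of DAPT at each of these steps. For the antagonism experiment, treatment lasted 24 h and began after 40 h of growth. A4 cells (2 arrays) received the NOTCH3 antibody anti-N3.A4 at 10 µg/ml with 0.05% DMSO, DAPT cells (3 arrays) a control IgG at 10 µg/ml with 5 µM DAPT, and control cells (3 arrays) that IgG with 0.05% DMSO. DAPT blocks every gamma-secretase substrate and not NOTCH3 alone, and all arrays come from 1 cell line.

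Values are deposited intensities converted to log2, and every change given here is a difference of log2 levels. Array medians lay between 6.84 and 6.88 in the agonism experiment and between 7.60 and 7.65 in the antagonism experiment, and levels were therefore compared within an experiment alone. The epithelial genes EPCAM and KRT8 stood above 96.8% of all genes on every array, KRT18 and KRT19 above 99.3%, EGFR above 98.6% and CDH1 above 88.6%. Of the basal keratins, KRT5 stood between the 94.1 and 99.4 percentiles, but KRT14 only between 54.4 and 79.3. The hormone receptor genes, listed as absent in triple-negative cells, stood between 29.3 and 57.2 (ESR1) and between 14.0 and 20.6 (PGR). Of 6 genes fixed as markers of other cells, PTPRC stood between the 6.27 and 13.3 percentiles, COL3A1 between 25.1 and 32.4, VWF between 36.3 and 48.0, CD3E between 46.4 and 53.8, PECAM1 between 54.7 and 65.2 and COL1A1 between 70.0 and 78.8. Without detection calls these percentiles do not tell expression from background, and the part of other cells was not tested. The treatments moved the Notch-responsive gene MYC, which fell by 1.21 ± 0.07 with DAPT in the agonism experiment, by 1.34 ± 0.10 with DAPT and by 1.15 ± 0.11 with A4 in the antagonism experiment, and rose by 1.33 ± 0.07 with A13 and 0.80 ± 0.07 with JAG1 beads (log2 change ± SE, limma adjusted p from 5.78e-10 to 0.0134). The Notch targets HES1 and NRARP rose by 0.33 ± 0.06 and 1.90 ± 0.07 with A13 and by 0.22 ± 0.06 and 1.01 ± 0.07 with JAG1 beads, and NOTCH3 itself fell by 0.73 ± 0.14 and HES1 by 0.39 ± 0.06 with DAPT against DMSO. NRARP did not pass with DAPT (-0.19 ± 0.07, limma adjusted p = 0.0563, and -0.24 ± 0.09, adjusted p = 0.286, in the antagonism experiment), nor did NOTCH3 with JAG1 beads (0.46 ± 0.14, adjusted p = 0.0525). MYC also rose with Fc beads against IgG (0.44 ± 0.07, limma adjusted p = 0.0026). A change called here passed limma's test at an adjusted p under 0.05 over all 19775 genes. No label names separate cultures for the arrays of a group, and the treatment text speaks of 1 DMSO plate in the agonism experiment, so p-values rest on a spread between samples that may be technical alone. In bulk RNA, fewer cells of a kind and less RNA per cell cannot be told apart.

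Promoter sequence was at hand for 32 of the 37 genes, in 41 windows of 250 bases before to 50 after a RefSeq gene start (GRCh38.p14). No window matched PDIA3, FKBP14, DERL1, DERL3 or SEC24D. The ER stress response element (ERSE, which is CCAAT and CCACG with 9 bases of any kind between them, on either strand), bound by ATF6 and XBP1, was found in 9 of the 41 windows (22.0%), against 0.0769% of 35116 windows of all genes. Its shorter form ERSE-II (ATTGG and CCACG with 1 base of any kind between them, either strand) was found in 3 windows (7.32%), against 0.0541%. The list was built around the response whose factors bind these elements, so the larger shares describe the list and not the expression data. The UPRE core TGACGTGG, which shares the letters CCACG with both on its other strand, was found in 3 windows, those of HYOU1, SSR3 and KDELR3 (7.32%, against 0.729%). Only exact matches were counted. WFS1 was called in more comparisons than any other of the 37 genes, 6 of 11, but several of these share arrays. Printed here are the windows of 6 genes that the results come back to: 5 with a match, in capitals, and WFS1 with no exact match. Each is written 5′ to 3′ on the gene's own strand. HSPA5 is at chr9:125241294-125241593 (minus strand), and its capitals mark an ERSE.
HSPA5: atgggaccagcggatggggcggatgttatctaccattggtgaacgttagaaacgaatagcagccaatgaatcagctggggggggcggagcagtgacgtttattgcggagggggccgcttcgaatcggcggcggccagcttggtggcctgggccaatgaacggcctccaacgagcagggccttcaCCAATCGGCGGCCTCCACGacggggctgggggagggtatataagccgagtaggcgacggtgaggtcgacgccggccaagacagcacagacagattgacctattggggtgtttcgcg
XBP1 is at chr22:28800520-28800819 (minus strand), the one of its 2 windows with a match, and its capitals mark an ERSE.
XBP1: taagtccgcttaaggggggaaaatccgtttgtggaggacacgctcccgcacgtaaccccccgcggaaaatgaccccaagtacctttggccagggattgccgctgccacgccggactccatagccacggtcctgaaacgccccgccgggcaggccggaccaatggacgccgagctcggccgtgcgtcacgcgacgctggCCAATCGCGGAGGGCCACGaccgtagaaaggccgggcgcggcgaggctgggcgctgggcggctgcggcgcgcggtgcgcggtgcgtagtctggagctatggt
CRELD2 is at chr22:49918384-49918683 (plus strand), with an ERSE on the opposite strand in capitals.
CRELD2: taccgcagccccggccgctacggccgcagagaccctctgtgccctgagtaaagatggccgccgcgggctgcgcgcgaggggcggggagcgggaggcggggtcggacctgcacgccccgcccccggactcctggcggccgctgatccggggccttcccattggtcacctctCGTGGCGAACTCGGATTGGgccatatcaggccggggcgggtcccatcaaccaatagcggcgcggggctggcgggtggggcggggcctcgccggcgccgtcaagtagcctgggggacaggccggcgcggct
HYOU1 is at chr11:119057156-119057455 (minus strand), with 2 ERSE-II on the opposite strand in capitals, the first of them overlapping a UPRE.
HYOU1: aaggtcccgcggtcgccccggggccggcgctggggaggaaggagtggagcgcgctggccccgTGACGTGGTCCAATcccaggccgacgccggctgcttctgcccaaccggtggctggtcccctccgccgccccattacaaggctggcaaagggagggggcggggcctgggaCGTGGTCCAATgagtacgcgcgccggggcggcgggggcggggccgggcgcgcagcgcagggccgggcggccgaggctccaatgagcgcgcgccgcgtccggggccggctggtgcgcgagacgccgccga
HERPUD1 is at chr16:56931892-56932191 (plus strand), and its capitals mark an ERSE-II.
HERPUD1: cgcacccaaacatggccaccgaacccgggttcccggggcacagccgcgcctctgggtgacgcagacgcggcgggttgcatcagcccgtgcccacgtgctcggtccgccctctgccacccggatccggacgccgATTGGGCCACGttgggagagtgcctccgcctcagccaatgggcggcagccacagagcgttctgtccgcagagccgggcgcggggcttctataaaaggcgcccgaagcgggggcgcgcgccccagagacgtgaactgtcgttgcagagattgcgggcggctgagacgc
WFS1 is at chr4:6269600-6269899 (plus strand). Its window holds CGAGG and ATTGG with 9 bases between them, which differs in 1 letter from an ERSE on the opposite strand.
WFS1: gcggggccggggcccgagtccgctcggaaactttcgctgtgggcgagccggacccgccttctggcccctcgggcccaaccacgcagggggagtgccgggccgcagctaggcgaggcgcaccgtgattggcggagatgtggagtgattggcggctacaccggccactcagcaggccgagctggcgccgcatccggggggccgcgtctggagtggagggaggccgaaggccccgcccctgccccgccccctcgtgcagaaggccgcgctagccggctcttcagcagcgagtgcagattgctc

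The RBPJ core TGGGAA, the letters bound by the DNA-binding partner of cleaved Notch, was in 7 of the 41 windows (17.1%), those of CRELD2, CALR, EIF2AK3, XBP1, SEL1L, SEC61B and SSR3, against 24.0% of all windows. The E-box CACGTG, which MYC can bind, was in 7 windows of 6 genes, HSP90B1, DNAJB9, CANX, HERPUD1, SSR1 and SSR3 (17.1%, against 7.26%). A match is a description of letters in the window and not of binding.

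Across the 6 agonism groups, 30 of the 37 genes varied (limma F test, adjusted p under 0.05), against 45.8% of all genes tested. The 7 that did not pass were HSPA5, HSP90B1, CALR, CANX, PDIA4, DERL3 and SSR1, a set that holds both major chaperones and both lectin chaperones. DAPT had the highest group mean for 18 of the 37 genes, and DMSO or JAG1 beads the lowest for 29 of them (16 DMSO, 13 JAG1 beads). The span between the highest and the lowest group mean was widest for ERN1 (1.28 log2 units) and KDELR3 (1.06), and narrowest for PDIA6 (0.16) among the genes that varied.

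**Figure D1:**
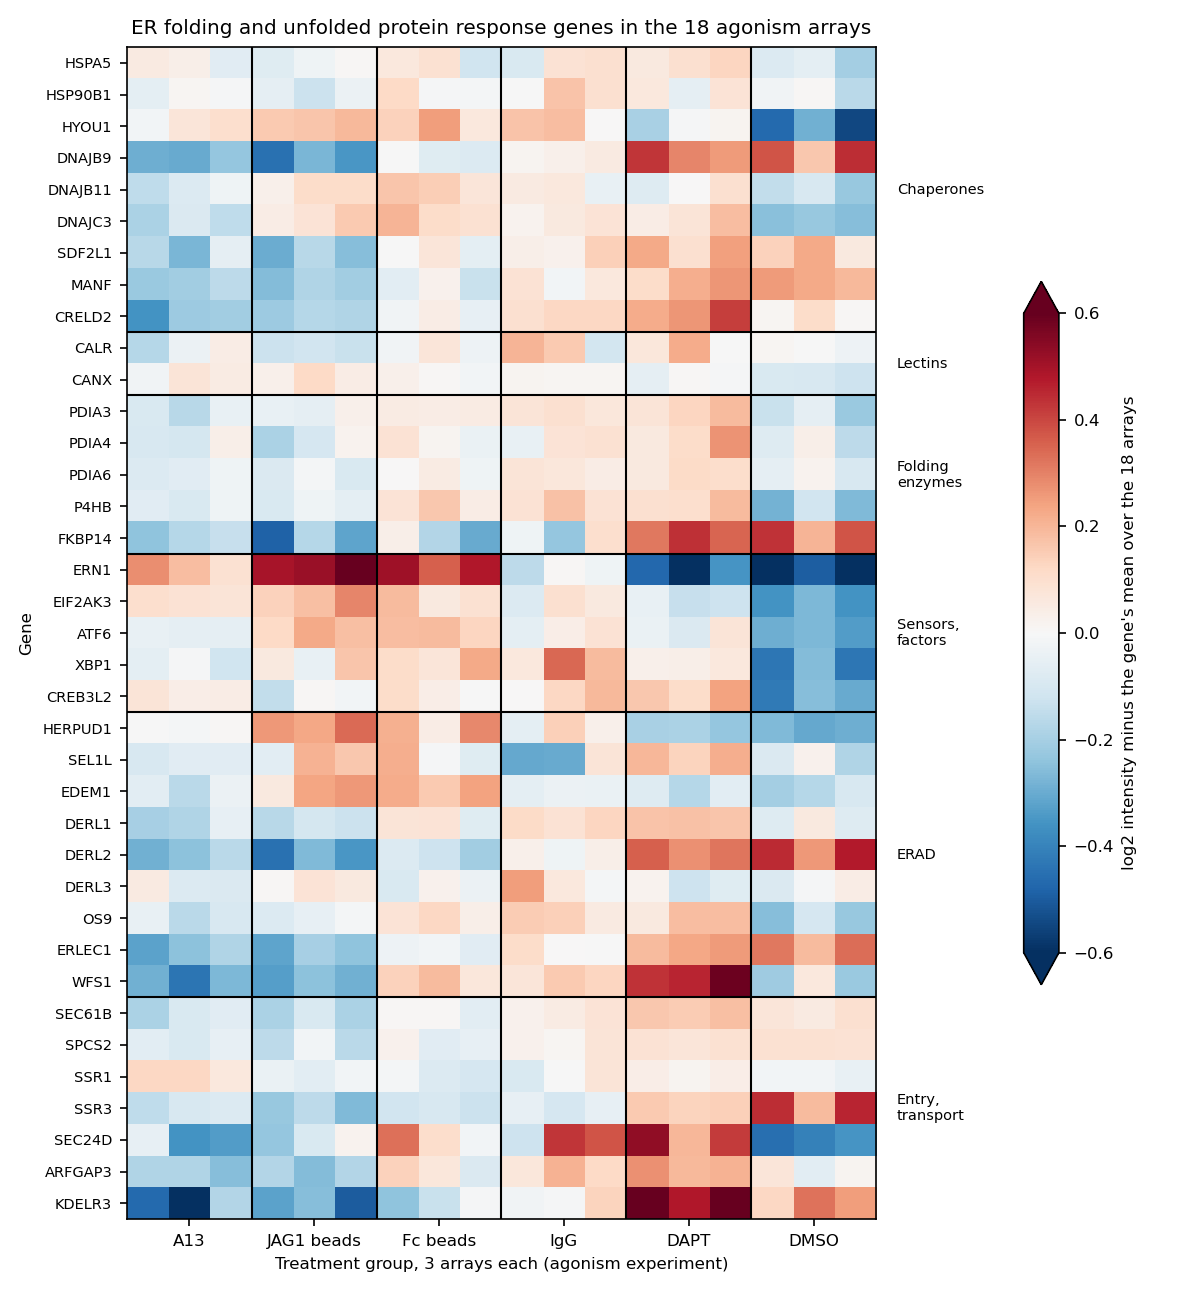
Each row is 1 of the 37 genes, ordered by role, and each column 1 of the 18 agonism arrays. Colour is log2 intensity minus the gene's mean over the 18 arrays, red above and blue below. DNAJB9, MANF, DERL2, ERLEC1, FKBP14 and SSR3 are red in DAPT and DMSO and blue in A13 and JAG1 beads, while ERN1, HYOU1 and XBP1 are blue in DMSO.

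Some orders of the group means recurred. DNAJB9, MANF, DERL2, ERLEC1 and SPCS2 ran, from high to low, DMSO, DAPT, IgG, Fc beads, A13, JAG1 beads. ERN1 and EIF2AK3 ran nearly the other way, JAG1 beads, Fc beads, A13, IgG, DAPT, DMSO. Another set, PDIA3, P4HB, OS9 and SEC24D, ran DAPT, IgG, Fc beads, JAG1 beads, A13, DMSO. Neighbouring means could be nearly equal, as for DNAJB9 with DMSO and DAPT (11.792 and 11.791) and P4HB with JAG1 beads and A13 (12.905 and 12.901). The orders were not tested.

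With continued DAPT, set against DMSO, 16 of the 37 genes rose and 1 fell. This was 43.2% higher and 2.70% lower, against 12.4% higher and 8.31% lower of all genes tested (20.7% in either direction). The median change of the 37 was 0.20, against 0.02 for all genes. The rise took in members of 5 of the 6 roles: 4 of 5 sensors and factors, 4 of 9 chaperones, 2 of 5 folding enzymes, 3 of 9 degradation genes and 3 of 7 entry and transport genes. Neither lectin chaperone passed.

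**Figure D2:**
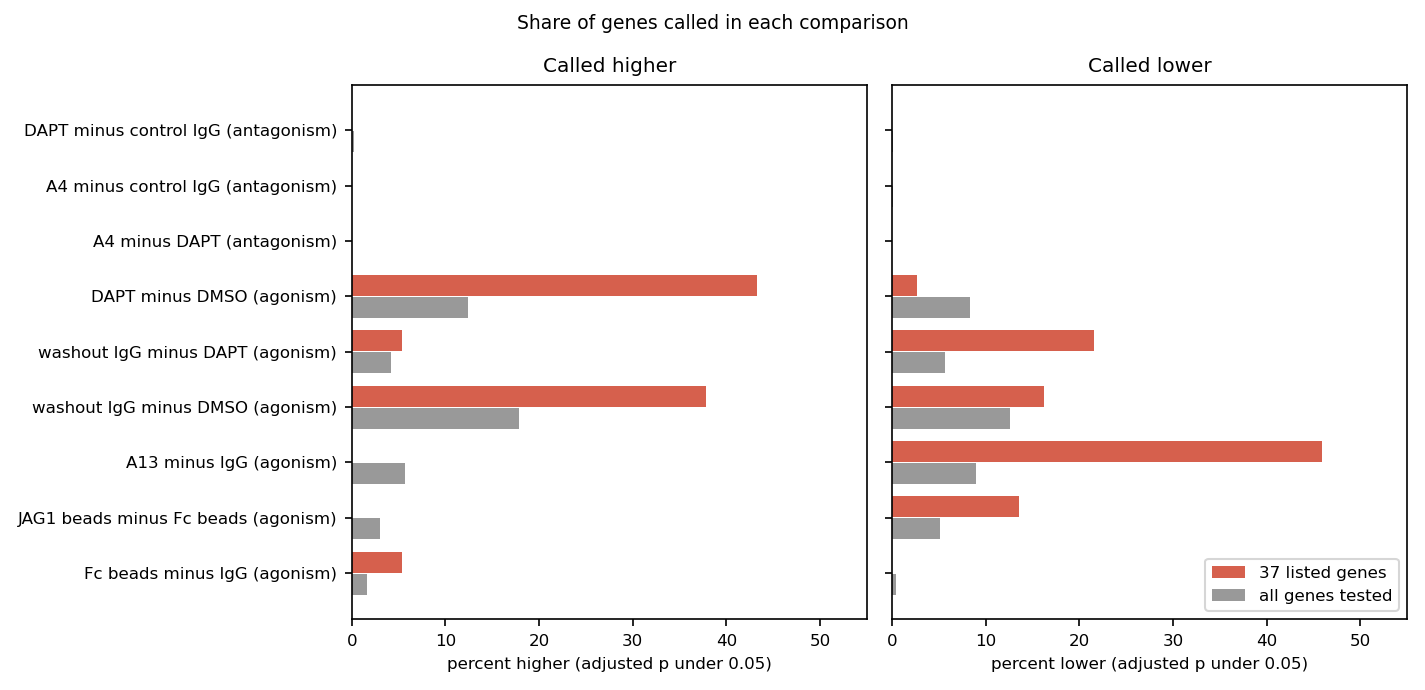
Bars give the percent of genes called higher (left) or lower (right) in each comparison, red for the 37 ER genes and grey for all 19775 genes tested. The ER genes stand above the grey bars for higher calls with DAPT (43.2% against 12.4%) and for lower calls with A13 (45.9% against 9.02%).

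Of the sensors and factors, XBP1, the transcription factor made after IRE1 splices its transcript, measured 12.41, 12.42 and 12.45 on the DAPT arrays, against 11.95, 12.12 and 11.95 on the DMSO arrays. The groups did not overlap, and XBP1 rose by 0.42 ± 0.08, or 1.34-fold (limma adjusted p = 0.000768). The array gives 1 level for the gene and does not tell its spliced form apart. A second, much dimmer XBP1 probe set (mean log2 over all arrays 5.85, against 12.35) gave -0.01 ± 0.11. CREB3L2, a membrane-bound factor that turns on secretory genes once cleaved, measured 9.76, 9.71 and 9.84 with DAPT, against 9.17, 9.34 and 9.29 with DMSO. It rose by 0.50 ± 0.07 (1.41-fold, limma adjusted p = 5.23e-05), while its 2 other probe sets gave 0.06 ± 0.10 and -0.09 ± 0.07. These 2 were dimmer (means 7.83 and 6.72, against 9.71). ATF6 rose by 0.28 ± 0.06 and EIF2AK3 by 0.23 ± 0.06 (limma adjusted p = 0.00166 and 0.0138). ERN1 was 0.21 ± 0.10 higher on average, with overlapping arrays (limma adjusted p = 0.146).

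HSPA5, the main Hsp70 of the ER, measured 12.62, 12.66 and 12.69 with DAPT, against 12.48, 12.50 and 12.36 with DMSO. It rose by 0.21 ± 0.07, or 1.16-fold (limma adjusted p = 0.0371), and lost its call without any 1 of DAPT array 1, 2 or 3 or DMSO array 1 or 3 (change 0.17 to 0.24 over the arrays left out, adjusted p up to 0.173). HYOU1, which helps HSPA5 exchange its nucleotide, measured 11.62, 11.81 and 11.83 with DAPT and 11.35, 11.53 and 11.27 with DMSO, a rise of 0.37 ± 0.08 (limma adjusted p = 0.0022). DNAJC3, a J-protein partner of HSPA5, rose by 0.35 ± 0.06, and CRELD2, an ER-resident protein made under ER stress, by 0.26 ± 0.06. HSP90B1, the Hsp90 of the ER, did not pass (0.09 ± 0.06, limma adjusted p = 0.4), nor did DNAJB9, a J-protein that holds IRE1 in check (-0.0013 ± 0.07, adjusted p = 0.993). P4HB, the classical disulfide isomerase, rose by 0.35 ± 0.06, and PDIA3, the isomerase that works with the lectin chaperones, by 0.27 ± 0.06.

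Larger rises by the chosen probe sets were found among degradation and transport genes. SEC24D, a cargo-binding subunit of the COPII coat that carries proteins out of the ER, measured 8.07, 7.74 and 7.96 with DAPT, against 7.09, 7.13 and 7.18 with DMSO. Every DAPT array was above every DMSO array, and the rise was 0.79 ± 0.13, or 1.73-fold (limma adjusted p = 0.000396). Its 2 other probe sets, much dimmer (means 4.28 and 4.36, against 7.79), gave -0.18 ± 0.12 and -0.08 ± 0.10, and the mean of its probe sets rose by 0.18. WFS1, an ER membrane protein grouped here with degradation, measured 8.998, 9.02 and 9.16 with DAPT, against 8.35, 8.63 and 8.35 with DMSO, a rise of 0.62 ± 0.08 or 1.53-fold (limma adjusted p = 2.72e-05). OS9, a lectin that hands misfolded glycoproteins to degradation, rose by 0.34 ± 0.06 and DERL1, a membrane protein of the same route, by 0.20 ± 0.06. KDELR3, a receptor that returns escaped ER proteins, rose by 0.40 ± 0.10, and ARFGAP3, which acts on coat assembly at the Golgi, by 0.22 ± 0.06. HERPUD1, which gathers degradation factors at the membrane, did not pass (0.08 ± 0.06, limma adjusted p = 0.43), while its other probe set gave -0.25 ± 0.07 (limma adjusted p = 0.0272 over all probe sets). SSR3, a subunit of the complex beside the translocation channel, was the gene that fell (-0.22 ± 0.06, limma adjusted p = 0.0192).

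Across the 11 comparisons, the F test aside, 8 genes never passed by the probe set that stood for them. They were HSP90B1, the lectin chaperones CALR and CANX, the isomerases PDIA4 and PDIA6, the degradation gene DERL3, the signal peptidase subunit SPCS2 and SSR1, a partner of SSR3. PDIA6 and SPCS2 did pass the F test over the 6 agonism groups (limma adjusted p = 0.0494 and 0.0123). With DAPT against DMSO, PDIA4 changed by 0.21 ± 0.07 (limma adjusted p = 0.0533), PDIA6 by 0.14 ± 0.05, CALR by 0.10 ± 0.08 and CANX by 0.09 ± 0.05. A second PDIA4 probe set, named after its value was seen, gave 0.31 ± 0.08 (limma adjusted p = 0.0128 over all probe sets). SSR1, SPCS2 and DERL3 lay between -0.04 and 0.06. Of the 5 other SSR1 probe sets, also named after their values were seen, 1 gave 0.35 ± 0.07 (limma adjusted p = 0.0027 over all probe sets) and 1 gave 0.23 ± 0.07 (0.0229), while the other 3 lay between -0.03 and 0.07. With A13 against IgG, 1 of the 2 other DERL3 probe sets gave -0.31 ± 0.06 (limma adjusted p = 0.00345 over all probe sets). The standing of PDIA4, SSR1 and DERL3 thus depended on the probe set. Over all comparisons the changes of the 8 genes ranged from -0.40 to 0.22.

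Leaving out 1 array at a time gave 12 to 21 calls among the 37 genes, and 11 of the 17 called genes kept their call with every array left out: HYOU1, DNAJC3, CRELD2, PDIA3, P4HB, ATF6, XBP1, CREB3L2, OS9, WFS1 and SEC24D. Of these, DNAJC3, XBP1 and CREB3L2 lost it with all probe sets of a gene averaged, and CREB3L2 also without _x_at and _s_at probe sets. CRELD2 lost it in a fit of the DAPT and DMSO arrays alone (limma adjusted p = 0.0507). DERL1 lost its call without DAPT array 1, 2 or 3 or DMSO array 1 or 3 (adjusted p up to 0.0985), SSR3 without DAPT array 2 or 3 or DMSO array 1 or 3 (up to 0.113), EIF2AK3 without DAPT array 1 or DMSO array 1 or 3 (up to 0.06), ARFGAP3 without DAPT array 1 or DMSO array 2 or 3 (up to 0.0735) and KDELR3 without DMSO array 1 (0.0591). Of the 17, 14 had other probe sets. Of these 27 probe sets, 22 had the same sign, and 5, of XBP1, CREB3L2, DERL1 and SEC24D, the opposite one. The opposite DERL1 probe set passed in its own right (-0.31 ± 0.10, limma adjusted p = 0.0488 over all probe sets), so that the direction of DERL1 depended on the probe set. It was the dimmest of the 4 (mean 7.62, against 10.89 for the one used). The 2 brighter others had the sign of the one used and did not pass (0.14 ± 0.07 and 0.06 ± 0.07).

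**Figure D3:**
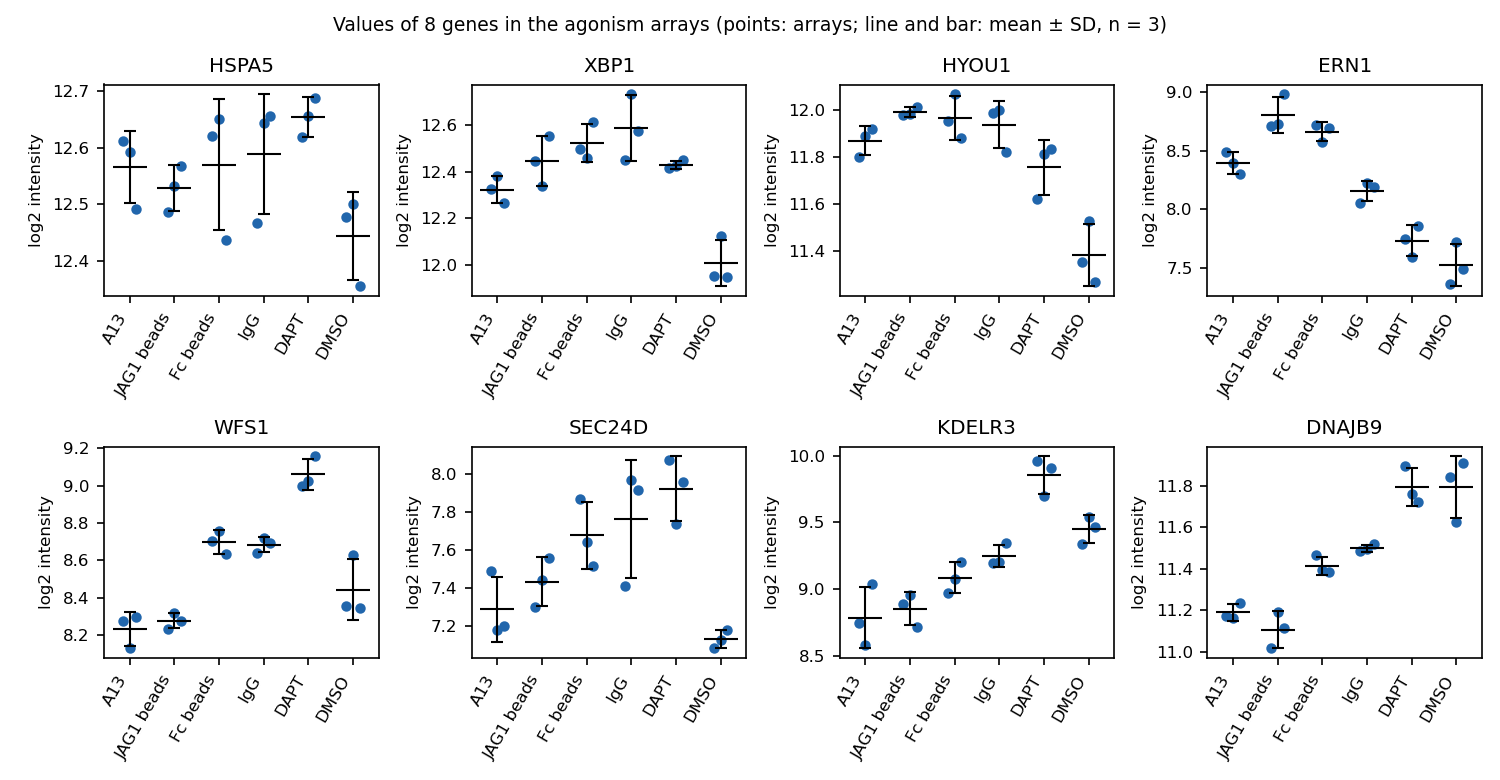
Points are single arrays of the 6 agonism groups for HSPA5, XBP1, HYOU1, ERN1, WFS1, SEC24D, KDELR3 and DNAJB9, on the log2 intensity scale with a separate axis for each gene. Lines and bars are mean ± SD of 3 arrays. WFS1 and KDELR3 are highest with DAPT and lowest with A13, while ERN1 is highest with JAG1 beads and lowest with DMSO.

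Washout of DAPT into control IgG lifted the block for 24 h, but the labels give the continued DAPT cells no antibody, so the washout and the antibody cannot be told apart. Against continued DAPT, 2 of the 37 genes rose and 8 fell (5.41% and 21.6%), against 4.15% higher and 5.62% lower of all genes tested (9.77% in either direction). ERN1 measured 8.06, 8.22 and 8.19 with IgG, against 7.74, 7.59 and 7.86 with DAPT, and rose by 0.42 ± 0.10 (1.34-fold, limma adjusted p = 0.00841). KDELR3 measured 9.20, 9.21 and 9.35 with IgG, against 9.96, 9.70 and 9.91 with DAPT, and fell by 0.60 ± 0.10 (1.52-fold, limma adjusted p = 0.00105). The arrays of the groups did not overlap for either gene.

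WFS1 fell by 0.38 ± 0.08, FKBP14, a prolyl isomerase for collagens, by 0.42 ± 0.10, SEL1L, the adaptor of the main ER ubiquitin ligase, by 0.36 ± 0.10, DERL2, a relative of DERL1, by 0.30 ± 0.07, and DNAJB9 by 0.29 ± 0.07. SSR3 fell by 0.21 ± 0.06 and ERLEC1, a lectin related to OS9, by 0.19 ± 0.06. HERPUD1 rose by 0.24 ± 0.06 (limma adjusted p = 0.0221), but its probe set can also detect related transcripts, and its other probe set, used where such probe sets were left out, gave -0.053. HSPA5, HSP90B1, EIF2AK3, ATF6 and XBP1 did not pass, with changes between -0.07 and 0.16. The count of 10 fell to between 5 and 8 when 1 array was left out: 5 without IgG array 2 or DAPT array 1, 6 without DAPT array 3 and 8 without any other. ERN1, DERL2, WFS1 and KDELR3 kept their call under every array left out.

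Against DMSO, the IgG cells differ in the earlier DAPT, its washout and the antibody, which cannot be told apart. Here 14 of the 37 genes rose and 6 fell (37.8% and 16.2%), against 17.9% higher and 12.6% lower of all genes tested (30.6% in either direction). All 5 sensors and factors rose: ERN1 by 0.63 ± 0.10 (1.55-fold), XBP1 by 0.57 ± 0.08, CREB3L2 by 0.43 ± 0.07, EIF2AK3 by 0.35 ± 0.06 and ATF6 by 0.32 ± 0.06 (limma adjusted p from 3.03e-05 to 0.000324). XBP1 measured 12.45, 12.73 and 12.57 with IgG, against 11.95, 12.12 and 11.95 with DMSO.

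HYOU1 measured 11.99, 12.00 and 11.82 with IgG and 11.35, 11.53 and 11.27 with DMSO, a rise of 0.55 ± 0.08 (1.47-fold), and SEC24D rose by 0.63 ± 0.13. P4HB, OS9, DNAJC3, WFS1, PDIA3 and DNAJB11, another J-protein partner of HSPA5, rose by 0.18 to 0.34. HERPUD1 rose by 0.33 ± 0.06, while its other, much dimmer probe set (mean 7.44, against 12.29) gave -0.30, so that the direction of HERPUD1 depended on the probe set. DNAJC3 gave -0.10 in place of 0.30 when all its probe sets were averaged. The 6 that fell were SSR3 (-0.43 ± 0.06), FKBP14 (-0.39 ± 0.10), DERL2 (-0.38 ± 0.07), DNAJB9 (-0.29 ± 0.07), ERLEC1 (-0.24 ± 0.06) and MANF (-0.18 ± 0.06), an ER protein that binds HSPA5. HSPA5 and HSP90B1 were each 0.15 higher on average and did not pass (limma adjusted p = 0.126 and 0.102). WFS1 lost its call without IgG array 2 or DMSO array 1 or 3, DNAJB11 without DMSO array 1 or 3 and without IgG array 1 or 2, and MANF without IgG array 2 or DMSO array 1, with adjusted p up to 0.136.

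The antibody A13, set against IgG, asked what stimulation of NOTCH3 did in cells released from DAPT. None of the 37 genes rose and 17 fell (45.9%), against 5.68% higher and 9.02% lower of all genes tested (14.7% in either direction, limma). At an unadjusted p under 0.05, 1 gene was higher and 18 were lower, against 5095 of all 19775 genes in either direction. The median change was -0.14, against -0.03 for all genes. The genes fell by 0.17 to 0.47 on the log2 scale and were 5 of 9 chaperones, 2 of 5 folding enzymes, 1 of 5 sensors and factors, 5 of 9 degradation genes and 4 of 7 entry and transport genes.

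WFS1 measured 8.28, 8.13 and 8.30 with A13, against 8.64, 8.72 and 8.69 with IgG. It fell by 0.45 ± 0.08, or 1.37-fold (limma adjusted p = 0.000349), and its second probe set also fell (-0.33 ± 0.09). KDELR3 measured 8.75, 8.58 and 9.04 with A13, against 9.20, 9.21 and 9.35 with IgG, and fell by 0.46 ± 0.10 (limma adjusted p = 0.00501). The groups did not overlap for either gene. CRELD2 measured 10.27, 10.41 and 10.42 with A13, against 10.72, 10.75 and 10.75 with IgG, and fell by 0.38 ± 0.06 (1.30-fold, limma adjusted p = 0.000261). ARFGAP3 measured 10.49, 10.49 and 10.41 with A13, against 10.74, 10.88 and 10.79 with IgG, and fell by 0.34 ± 0.06 (limma adjusted p = 0.00111). Every A13 array lay below every IgG array for both. SEC24D measured 7.49, 7.18 and 7.20 with A13 and 7.41, 7.97 and 7.91 with IgG. It fell by 0.47 ± 0.13 (limma adjusted p = 0.0193), although its groups overlapped through 1 IgG array.

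DNAJB9 measured 11.17, 11.16 and 11.24 with A13, against 11.48, 11.49 and 11.52 with IgG, and fell by 0.31 ± 0.07 (limma adjusted p = 0.00556), with no overlap. Its 2 other probe sets gave -0.18 ± 0.09 and 0.02 ± 0.12. Of the other chaperone genes, MANF fell by 0.24 ± 0.06, SDF2L1, a partner of DNAJB11, by 0.23 ± 0.07 and DNAJC3 by 0.20 ± 0.06. DNAJC3 gave 0.13 (limma adjusted p = 0.573) when all its probe sets were averaged, so that its direction rested on the probe set chosen. HSPA5 and HSP90B1 did not pass (-0.02 ± 0.07 and -0.11 ± 0.06).

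Of the degradation genes besides WFS1, ERLEC1 fell by 0.28 ± 0.06, DERL1 and DERL2 by 0.25 each and OS9 by 0.22 ± 0.06. XBP1 measured 12.33, 12.38 and 12.26 with A13, against 12.45, 12.73 and 12.57 with IgG, and was the one sensor or factor that fell (-0.26 ± 0.08, limma adjusted p = 0.0255). ERN1 was 0.24 ± 0.10 higher on average with arrays that did not overlap (8.49, 8.40 and 8.31 with A13, against 8.06, 8.22 and 8.19 with IgG), but did not pass (limma adjusted p = 0.107). EIF2AK3, ATF6 and HERPUD1 did not pass either (0.06 ± 0.06, -0.07 ± 0.06 and -0.04 ± 0.06). PDIA3 and P4HB fell by 0.18 each and SEC61B, a subunit of the translocation channel, by 0.17 ± 0.05.

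Leaving out an array took the count of 17 down to 10 without A13 array 1 or 2 or IgG array 2 or 3, to 11 without IgG array 1 and to 13 without A13 array 3, all of them falls. The 8 genes that kept their call each time were DNAJB9, MANF, CRELD2, DERL1, ERLEC1, WFS1, ARFGAP3 and KDELR3. P4HB lost it each time (adjusted p up to 0.179), PDIA3 and SEC61B each time but without A13 array 3 (up to 0.167), and SDF2L1 and DERL2 without A13 array 1 or 2 or IgG array 1 or 3. DNAJC3 and XBP1 lost it without A13 array 1 or 3 or IgG array 2 or 3, SEC24D without A13 array 2 or 3 or IgG array 2 or 3, and OS9 without A13 array 2 or IgG array 1 or 2. A fit of the A13 and IgG arrays alone called 9.

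With JAG1 beads, set against Fc beads, none of the 37 genes rose and 5 fell (13.5%), against 2.97% higher and 5.14% lower of all genes tested (8.11% in either direction, limma). At an unadjusted p under 0.05 none was higher and 13 were lower, against 4146 of all 19775 genes in either direction. The median change was -0.10, against 0.01 for all genes. WFS1 measured 8.24, 8.32 and 8.28 with JAG1 beads, against 8.70, 8.76 and 8.63 with Fc beads, and fell by 0.42 ± 0.08 (1.34-fold, limma adjusted p = 0.00141). DNAJB9 measured 11.02, 11.19 and 11.11 with JAG1 beads, against 11.46, 11.39 and 11.38 with Fc beads, and fell by 0.31 ± 0.07 (limma adjusted p = 0.0109). Neither gene's groups overlapped. ARFGAP3 and SDF2L1 fell by 0.24 each and ERLEC1 by 0.21 ± 0.06.

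DERL2, MANF, CRELD2, P4HB, DERL1, OS9, SEC61B and KDELR3 were lower at the unadjusted p alone, with changes from -0.23 to -0.13. HSPA5 (-0.04 ± 0.07), HSP90B1 (-0.11 ± 0.06), XBP1 (-0.08 ± 0.08), ERN1 (0.15 ± 0.10), EIF2AK3 (0.09 ± 0.06), ATF6 (0.01 ± 0.06) and HERPUD1 (0.10 ± 0.06) did not pass. Without JAG1 array 1 or Fc array 1 the count of 5 was 1, WFS1, and without JAG1 array 3 or Fc array 2 it was 3 and 2. WFS1 kept its call each time. DNAJB9 lost it without JAG1 array 1 or Fc array 1, SDF2L1 and ERLEC1 without JAG1 array 1 or 3 or Fc array 1 or 2, and ARFGAP3 without JAG1 array 1 or 2 or Fc array 1 or 2.

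The effects of JAG1 beads and A13 were set against each other in the same fit, each less its own control. None of the 37 genes differed (limma, smallest adjusted p = 0.799), against 0.182% of all genes tested (0.116% higher and 0.0657% lower). At an unadjusted p under 0.05, 2 of the 37 differed, CRELD2 and DERL3, against 1173 of all 19775 genes. The differences of the 37 ranged from -0.10 to 0.23, and a p that misses the threshold does not show that the effects were equal. With Fc beads, set against IgG, 2 of the 37 genes rose and none fell (5.41% higher, against 1.64% of all genes tested higher, 0.44% lower and 2.08% in either direction, limma). These were ERN1, at 8.72, 8.57 and 8.70 with Fc beads and 8.06, 8.22 and 8.19 with IgG (0.51 ± 0.10, limma adjusted p = 0.00846), and EDEM1, a mannosidase-like protein that marks glycoproteins for degradation (0.25 ± 0.06, limma adjusted p = 0.0403). At an unadjusted p under 0.05, 5 were higher and 1 lower, against 2893 of all 19775 genes in either direction. ERN1 lost its call without Fc array 1 or IgG array 1 (adjusted p up to 0.0613) and EDEM1 without any 1 of the 6 arrays, so that the count was 0 or 1 with an array left out.

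The comparisons of DAPT with DMSO, A13 with IgG and JAG1 beads with Fc beads share no array, though they share 1 fit. Of the 16 genes that rose with DAPT, 11 fell with A13: DNAJC3, CRELD2, PDIA3, P4HB, XBP1, DERL1, OS9, WFS1, SEC24D, ARFGAP3 and KDELR3. They were 68.8% of the 16 and 64.7% of the 17 that fell with A13, and over all genes 1007 shared genes were 41.2% of 2446 and 56.4% of 1784. No test of this difference in shares was made. Of the 11 genes, WFS1 alone was called in both comparisons under every alternative described below. P4HB lost its call with A13 under each array left out. The directions of DERL1 with DAPT and of DNAJC3 with A13 depended on the probe set. Of the 16, 15 had a negative change with A13 and 13 with JAG1 beads. All 5 genes that fell with JAG1 beads also fell with A13 (29.4% of 17), and over all genes 839 shared falls were 47.0% of 1784 and 82.5% of 1017. The 17 genes that fell with A13 each had a negative change with JAG1 beads, from -0.42 to -0.04 with a median of -0.18. WFS1 and ARFGAP3 were called in all 3 comparisons.

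**Figure D4:**
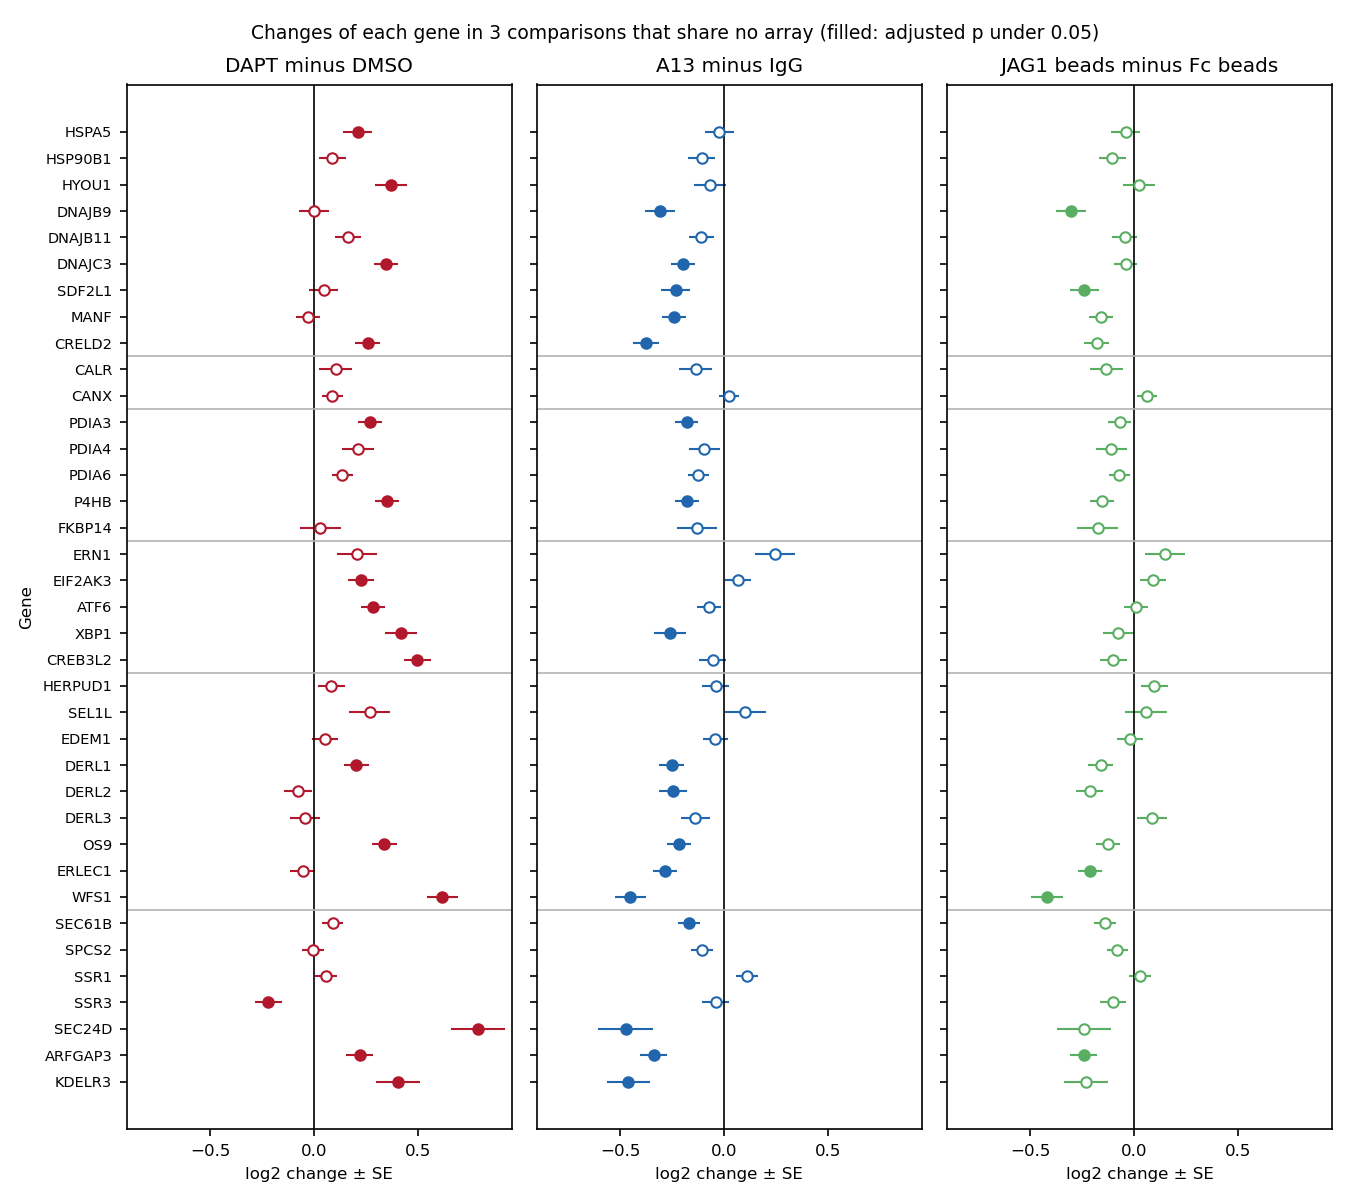
Each row is 1 of the 37 genes and each panel 1 comparison of the agonism experiment, with the log2 change and its SE from limma and filled points for an adjusted p under 0.05. Filled points lie right of 0 with DAPT except SSR3 (16 of 17) and left of 0 with A13 (17 of 17) and with JAG1 beads (5 of 5).

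The genes with an ERSE or ERSE-II in the 5 windows printed for HSPA5, XBP1, CRELD2, HYOU1 and HERPUD1 and in those of HSP90B1, CALR, CANX, PDIA6 and SDF2L1 were set beside the 22 with a window and no match. With DAPT against DMSO, 4 of the 10 with a match rose (median 0.12), and of the 22 without, 9 rose and 1 fell (median 0.21), against 12.4% higher and 8.31% lower of all genes tested. With A13 against IgG, 3 of the 10 fell (median -0.12) and 11 of the 22 (median -0.14), against 9.02% of all genes tested. With washout IgG against DAPT, 1 of the 10 rose and none fell, and of the 22, 1 rose and 7 fell, against 4.15% higher and 5.62% lower of all genes tested. No test of the matched against the unmatched genes was made. WFS1 and ARFGAP3, called with DAPT, A13 and JAG1 beads, had no exact match, and WFS1 counted among the 22 despite its near match.

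In the antagonism experiment, none of the 37 genes passed with DAPT against control IgG, against 0.354% of all genes tested (0.202% higher and 0.152% lower, limma). At an unadjusted p under 0.05, 7 were higher and none lower, against 2572 of all 19775 genes in either direction. The median change of the 37 was 0.09, against -0.004 for all genes. DNAJB9 measured 11.24, 11.19 and 11.40 with DAPT, against 10.91, 10.85 and 10.99 with control IgG (0.36 ± 0.08, limma adjusted p = 0.105). CREB3L2 measured 10.24, 10.24 and 9.91 with DAPT, against 9.80, 9.61 and 9.85 with control IgG (0.37 ± 0.10, limma adjusted p = 0.178). The groups did not overlap for these genes or for FKBP14 (0.32 ± 0.08), KDELR3 (0.28 ± 0.07), ARFGAP3 (0.25 ± 0.06), XBP1 (0.19 ± 0.08) and DERL2 (0.17 ± 0.07), which make up the 7. Groups without overlap also occurred in the 2 A4 comparisons, where none of the 37 passed either. The share of all genes without overlap was not counted, so a lack of overlap describes the values alone.

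HSPA5 measured 12.83, 12.81 and 12.77 with DAPT, against 12.73, 12.69 and 12.65 with control IgG, without overlap (0.11 ± 0.06, limma adjusted p = 0.504). ERN1 ranged from 8.12 to 8.14 with DAPT, against 7.75 to 8.66 with control IgG, the widest spread of a control group among the sensors. ATF6 (0.22 ± 0.11), HSP90B1 (0.13 ± 0.13), HERPUD1 (0.14 ± 0.07) and EIF2AK3 (-0.05 ± 0.09) did not pass either. Without control IgG array 2, whose log2 differences from control array 3 had an SD of 0.32, the widest of any pair, 3 of the 37 genes rose, and without any other array none was called.

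With A4 against control IgG none of the 37 passed (0.101% of all genes tested did, 0.0455% higher and 0.0556% lower, limma). At an unadjusted p under 0.05, 2 were higher, SEL1L (0.26 ± 0.10) and KDELR3 (0.23 ± 0.07), against 1836 of all 19775 genes in either direction. KDELR3 measured 9.78 and 9.87 with A4, against 9.60, 9.58 and 9.60 with control IgG (limma adjusted p = 0.356). HSPA5, XBP1 and HERPUD1 each differed by -0.01 and ERN1 by -0.03, while DNAJB9 and ATF6 were each 0.19 higher on average. HSP90B1 changed by 0.03 ± 0.15 and EIF2AK3 by -0.10 ± 0.10. A4 and DAPT set against each other gave no call among the 37 or among all genes (0% of all genes tested, limma). FKBP14, XBP1, DERL2 and ARFGAP3 were lower with A4 at an unadjusted p under 0.05, with changes between -0.20 and -0.18. That threshold was passed by 1628 of all 19775 genes in either direction. With 2 A4 arrays the precision is limited, and the median SE over the 37 genes was 0.087 in each A4 comparison.

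DAPT was given in both experiments, with IgG after 40 h of growth in one and after 16 h of DAPT and a washout in the other. The experiments share no array and differ in array medians. The difference of its effects, antagonism minus agonism, passed for 5 of the 37 genes, 1 higher and 4 lower (2.70% and 10.8%), against 2.85% higher and 3.27% lower of all genes tested (6.12% in either direction). WFS1 changed by -0.01 in the antagonism experiment, at 9.25, 9.27 and 9.46 with DAPT and 9.26, 9.39 and 9.35 with control IgG, and its effects differed by -0.62 ± 0.11 (limma adjusted p = 0.00384). HYOU1 differed by -0.38 ± 0.11, DNAJC3 by -0.36 ± 0.10 and PDIA3 by -0.31 ± 0.08, with changes between -0.05 and -0.01 in the antagonism experiment. DNAJB9 differed by 0.36 ± 0.10, and its change of 0.36 ± 0.08 in the antagonism experiment did not itself pass. Of the 16 genes that rose with DAPT in the agonism experiment, 11 had a positive change in the antagonism experiment and 5 a negative one, from -0.05 to 0.37 with a median of 0.11. With 1 array left out the count of 5 ranged from 1 to 9, and a fit of the compared groups alone gave 0. WFS1 kept its call with every array left out.

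**Figure D5:**
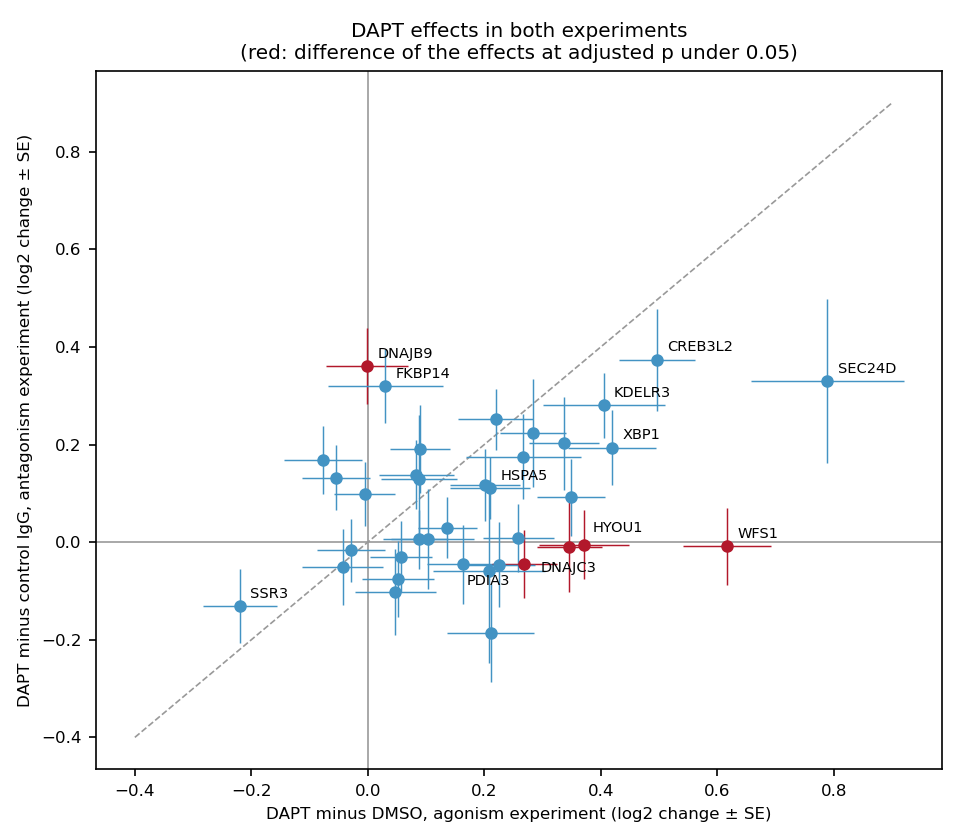
Each point is 1 of the 37 genes, with the log2 change under DAPT in the agonism experiment on the horizontal axis and in the antagonism experiment on the vertical axis, bars giving the SE. The dashed line marks equal changes, and red points are the 5 genes whose effects differed at an adjusted p under 0.05. WFS1, HYOU1, DNAJC3 and PDIA3 lie near 0 vertically and right of the line, and DNAJB9 lies above it.

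Related genes that are not members were counted in 4 further ER lists (folding, translocation and glycosylation, degradation and factors, and COPII with KDEL retrieval), 86 measured of 89 listed. With DAPT against DMSO, 19 rose and 8 fell (22.1% and 9.30%, against 12.4% and 8.31% of all genes tested), with a median of 0.07, and the share lower was near that of all genes. With A13 against IgG, 1 rose and 20 fell (1.16% and 23.3%, against 5.68% and 9.02%), with a median of -0.10. With JAG1 beads against Fc beads, none rose and 12 fell (14.0%, against 5.14%), with a median of -0.05. With washout IgG, 2 rose and 12 fell against DAPT (2.33% and 14.0%, against 4.15% and 5.62%), and 21 rose and 19 fell against DMSO (24.4% and 22.1%, against 17.9% and 12.6%). With Fc beads against IgG, none rose and 2 fell (2.33%, against 0.44%). In the antagonism experiment 2 rose with DAPT (2.33%, against 0.202%) and 1 with A4 (1.16%, against 0.0455%). AGR2, a disulfide isomerase of mucus-secreting epithelium, had the largest changes. It rose by 0.93 ± 0.07 with DAPT, fell by 1.47 ± 0.07 with A13 and by 1.27 ± 0.07 with JAG1 beads, and in the antagonism experiment rose by 1.02 ± 0.07 with DAPT and 0.69 ± 0.08 with A4 (limma adjusted p from 2.54e-10 to 0.0232). It also fell by 1.01 ± 0.07 with washout IgG against DAPT and by 0.54 ± 0.07 with Fc beads against IgG. CREB3L4, a membrane-bound factor related to CREB3L2, followed the same signs, as it rose by 0.57 ± 0.07 with DAPT and fell by 1.16 ± 0.07 with A13 and by 0.78 ± 0.07 with JAG1 beads. In the folding list, FKBP11 fell by 0.55 ± 0.12 and FKBP9 rose by 0.41 ± 0.06 with DAPT, and SDF2 and FKBP2 fell with both A13 (-0.39 and -0.38) and JAG1 beads (-0.28 and -0.23). In the transport list, SEC31A of the outer COPII coat rose by 0.32 ± 0.06 and the GTPase SAR1A fell by 0.38 ± 0.08 with DAPT, while TMED10 fell with A13 (-0.29 ± 0.06) and JAG1 beads (-0.23 ± 0.06).

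The list of the ATF4 and CHOP branch, which PERK feeds and which amino acid shortage can also drive, had 18 measured genes and another pattern. With DAPT against DMSO, 2 rose and 4 fell (11.1% and 22.2%, against 12.4% and 8.31% of all genes tested), with a median of 0.02. With washout IgG, 15 rose and none fell against DAPT (83.3% higher, against 4.15%), with a median of 0.58, and 17 rose and none fell against DMSO (94.4% higher, against 17.9%), with a median of 0.45. ATF3 rose by 1.19 ± 0.12 in each of these and CHAC1 by 1.09 ± 0.10 and 0.99 ± 0.10. With A13 against IgG 7 rose and 1 fell (38.9% and 5.56%, against 5.68% and 9.02%), with a median of 0.24, among them CEBPG (0.51 ± 0.08) and NUPR1 (-0.47 ± 0.06). With JAG1 beads against Fc beads 3 rose and 1 fell (16.7% and 5.56%, against 2.97% and 5.14%). With Fc beads against IgG 9 rose and none fell (50% higher, against 1.64%), with a median of 0.30, among them ATF3 (0.62 ± 0.12) and PPP1R15A (0.58 ± 0.09), in the comparison in which ERN1 also rose. Of 14 measured cytosolic heat shock genes, 2 rose and 2 fell with DAPT (14.3% each, against 12.4% and 8.31%), 3 and 2 with A13 (21.4% and 14.3%, against 5.68% and 9.02%), and 1 and 1 with JAG1 beads (7.14% each, against 2.97% and 5.14%). HSPB1 fell by 0.50 ± 0.06 with A13 and by 0.41 ± 0.06 with JAG1 beads. Whether these lists had a part in the changes of the 37 genes was not tested.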

How the data were processed

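RNA of MDA-MB-468 cells was measured on 26 arrays of 54675 probe sets, 8 of the antagonism and 18 of the agonism experiment. The deposited table holds linear intensities, 1 for each probe set on each array (7.12 to 32597). Per the submitters' processing notes, RMA and R 2.10 were used, with no roles given. RMA corrects background and makes arrays alike. It therefore shrinks any shift shared by most transcripts, and it gives no detection calls. The plan had assumed log2 values, so log2 of the deposited intensities was taken before the planned test.

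Of the probe sets, 41097 had 1 gene symbol, 1801 several and 11777 none. The brightest single-gene probe set by mean log2 over all arrays stood for each of 19775 genes, with no filter on level. Of the 37 genes described, 30 had more than 1 probe set, and the one used ended in _x_at or _s_at for 18, which can also detect related transcripts. The genes, gene lists and tests were chosen with earlier results of these data known.

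Groups came from the treatment labels, which give no replicate numbers, batches or dates, and arrays are numbered in listed order. The SD of log2 differences between arrays of a group was 0.138 to 0.194 in the agonism and 0.129 to 0.32 in the antagonism experiment, so no 2 arrays of a group repeated each other. Arrays of different groups were not compared in this way. All p-values come from moderated linear models (limma 3.58.1, R 4.3.3), 1 model per experiment holding all its groups, except that the difference of DAPT effects used 1 model over all 26 arrays, adjusted by Benjamini-Hochberg over all genes. The procedure was tested on simulated data. The naming rule took, per comparison, up to 6 passing genes with the largest change, HSPA5, HSP90B1, XBP1, DNAJB9, HERPUD1, ERN1, EIF2AK3 and ATF6 throughout, and up to 4 passing genes of each further list. Because every gene had to be accounted for, the other passing genes were named as well, after their values were seen. Genes of the further lists not analysed here include TXNDC5, SEC61G, HSPA1A, HSPA1B, HSPA8 and AHSA1. Alternatives were other scalings, the compared groups alone, other probe set choices, a filter on level, an intensity trend and leaving out each array. Promoter windows were searched and figures drawn with Python 3.11.15 and matplotlib 3.10.9.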

Additional observations from a re-analysis of the deposited data

Results flagged for a closer look

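A test of the difference between the DAPT effects of the 2 experiments (antagonism minus agonism, limma over all 26 arrays) passed for 5 of the 37 genes. WFS1 differed by -0.62 ± 0.11 (adjusted p = 0.00384), HYOU1 by -0.38 ± 0.11 (0.0372), DNAJC3 by -0.36 ± 0.10 (0.0338) and PDIA3 by -0.31 ± 0.08 (0.0260). DNAJB9 differed by 0.36 ± 0.10 (0.0388). The experiments differ in growth, control, earlier DAPT and intensity scale, which cannot be told apart. Array medians were 7.60 to 7.65 in the antagonism and 6.84 to 6.88 in the agonism experiment. WFS1 kept its call with each of the 12 arrays left out. HYOU1 lost its call in 8 of 12, DNAJB9 and DNAJC3 in 7 of 12 and PDIA3 in 6 of 12, with adjusted p up to 0.132, and in the fit of the compared groups alone none of the 5 passed.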

How the results depend on the processing

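No paired analysis was possible because the labels give no replicate numbers. Counts are of the 37 genes passing. With 1 array left out they ranged from 12 to 21 for DAPT against DMSO (17 with all arrays), 5 to 8 for washout IgG against DAPT (10), 17 to 21 for washout IgG against DMSO (20), 10 to 13 for A13 (17), 1 to 6 for JAG1 beads (5), 0 to 1 for Fc beads (2), 1 to 9 for the difference of DAPT effects (5), 28 to 30 for the F test (30), 0 to 3 for DAPT in the antagonism experiment (0) and 0 for the 2 A4 comparisons and for JAG1 less A13. With only the compared groups fitted, washout IgG against DAPT gave 6, A13 9, JAG1 beads 2, Fc beads 1 and the DAPT difference 0. Without _x_at and _s_at probe sets these were 6, 10, 3, 1 and 2. With all probe sets of a gene averaged, A13 gave 10, Fc beads 1 and the DAPT difference 3. With genes above the median level, DAPT in the antagonism experiment gave 2, JAG1 beads 11 and the DAPT difference 10, and with an intensity trend 2, 9 and 8. Median centring gave 1 for Fc beads and 3 for the DAPT difference, repeated quantile normalization 1 for Fc beads, and centring on the tested genes, chosen after seeing the data, 3 for the DAPT difference. The other counts stayed within 1.5 times. Of 1082 values of single called genes under alternatives, 845 kept call and direction, 233 lost the call and 4 reversed: HERPUD1 without _x_at and _s_at probe sets (-0.053 for washout IgG against DAPT, -0.30 against DMSO) and DNAJC3 with probe sets averaged (-0.10 for washout IgG against DMSO, 0.13 for A13). Called under every alternative that held the gene were 7 of 17 genes for DAPT against DMSO (HYOU1, PDIA3, P4HB, ATF6, OS9, WFS1 and SEC24D). The same held for 4 of 10 and 12 of 20 for washout IgG against DAPT and DMSO, 6 of 17 for A13 (MANF, CRELD2, ERLEC1, WFS1, ARFGAP3 and KDELR3), 1 of 5 for JAG1 beads (WFS1), 0 of 2 for Fc beads and 0 of 5 for the DAPT difference. HYOU1, OS9 and SEC24D, counted among the 7 and the 12, were in 13 alternatives, and the others of the 7 and the 12 in 14. HYOU1 and OS9 have _x_at or _s_at probe sets alone, so the alternative without these could not be applied to them. No scaling reversed a called gene. Why counts moved was not tested, beyond fewer arrays or genes in the fit. With 2 or 3 arrays a group, precision is limited, and no detection calls were used, so low signals carry unknown background.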

Other observations

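Over the 18 agonism arrays, the genes whose log2 levels followed HSPA5 most closely were PRRC1 (Pearson r = 0.86), ARCN1 (0.85), PJA2 (0.83), KIAA1191 (0.83) and AP2M1 (0.83). ARCN1 is a subunit of the COPI coat, which returns proteins to the ER, and AP2M1 one of the AP2 adaptor of endocytosis. With the group means removed, these were 0.77, 0.89, 0.81, 0.76 and 0.69. Among the 37 ER genes, CREB3L2 (0.77), SEC24D (0.75) and P4HB (0.71) stood nearest to HSPA5, while HSP90B1 stood at 0.61, DNAJB9 at -0.02 and ERLEC1 at -0.09. Over the 666 pairs of the 37 genes the median r was 0.25, with a range from -0.95 to 0.98. The arrays share groups and processing, so these are descriptions without a test.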
